A study of Homo sapiens with 3 samples.

Results

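The genes described here encode subunits of the receptors for glutamate, GABA and glycine, the main fast transmitters of the central nervous system. They were taken by their symbols from a list of 35 receptor genes, using the probe sets that name 1 gene only. The list was chosen with earlier results of these data known. Of the 35 genes, 34 were measured so, by 95 probe sets, out of 19775 genes measured by 41091 such probe sets in all. GABRE was not analysed here, since the probe set that names it also names other genes. The study's 3 samples were IMR-32 and NGP, both neuroblastoma cell lines, and a pool of 16 different cancer cell lines that served as reference, and each was measured on a single Affymetrix U133 Plus 2.0 array. No treatment of any sample is described, and the study's methods give no growth medium for the lines of the pool. By the study's methods NGP was kept in RPMI medium and IMR-32 in Minimum Essential Medium, so that medium and cell line cannot be told apart. Both lines are established MYCN-amplified neuroblastoma lines, and each stands for 1 tumour. The pool averages its lines, so that a subunit made by a single one of them is diluted in it. The values are MAS5 signals, which are hybridization intensities on a linear scale, and a log2 ratio is the log2 of 1 signal over another.

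Glutamate opens AMPA, kainate and NMDA receptors, which are cation channels built from several subunits, and also acts on metabotropic receptors, which couple to G proteins. GABA opens the chloride channel of the GABA-A receptor, a ring of subunits, and acts on the GABA-B receptor, a pair of G protein-coupled subunits. Glycine opens a chloride channel made of alpha subunits and of GLRB, which ties the channel to the scaffold protein gephyrin. Neuroblastoma arises from neural crest cells of the sympathetic lineage, whose mature neurons are driven mainly by acetylcholine, and the receptors described here are best known from the brain and spinal cord.

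Most receptor probe sets were dim in all samples. A probe set was counted as bright where its signal lay above the median of all probe sets of its array, which was 89.9 in IMR-32, 98.8 in NGP and 119 in the pool. Of the 95 receptor probe sets, 27 were above the median in IMR-32 (28.4%), 38 in NGP (40.0%) and 16 in the pool (16.8%). Among all probe sets that name 1 gene, 55.5%, 54.9% and 56.6% were above it in the same arrays. The receptor probe sets were thus above the median less often than probe sets in general, in the neuroblastoma lines as well as in the pool. Counted by gene, 15 of the 34 receptor genes had at least 1 probe set above the median in IMR-32, 21 in NGP and 12 in the pool, against 61.7%, 61.2% and 66.4% of all genes. The share of receptor genes was 44.1% in IMR-32, 61.8% in NGP and 35.3% in the pool, and that of NGP was close to the share of all genes. Of the 95 probe sets, 49 were above the median in none of the 3 arrays (31.9% of all probe sets with 1 gene were) and 10 were above it in all 3 (44% of all). A further 11 were above it in both neuroblastoma lines and not in the pool, 15 in NGP alone, 4 in IMR-32 alone and 2 in the pool alone. Of all probe sets with 1 gene, 4.5%, 3.64%, 3.36% and 6.22% showed these patterns. For 10 genes no probe set was above the median in any array, and the highest signals of these genes ranged from 52.9 to 98.02.

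**Figure D1:**
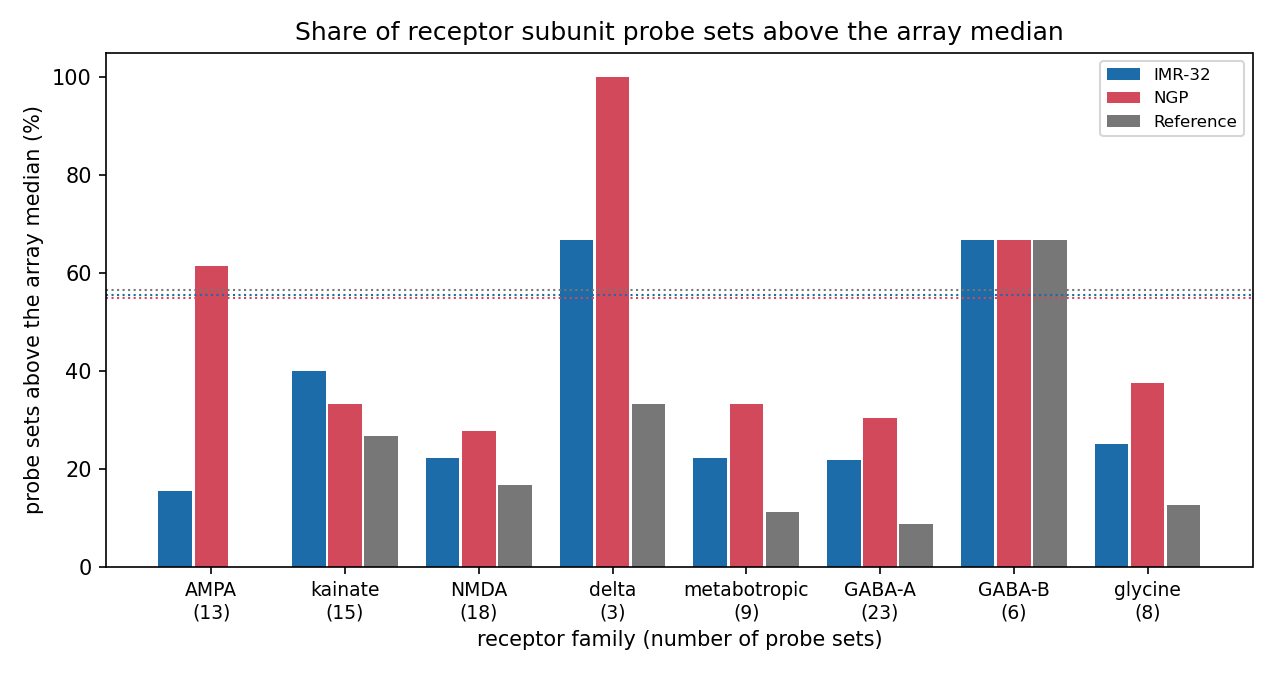
Share of receptor probe sets with a signal above the array median (y-axis, percent) in each receptor family (x-axis, with the number of probe sets), in IMR-32, NGP and the reference pool (bars). Dotted lines give the share among all probe sets that name 1 gene in each array (55.5%, 54.9% and 56.6%). AMPA probe sets were above the median in 8 of 13 cases in NGP, in 2 in IMR-32 and in 0 in the pool, while those of GABA-B receptors were above it in 4 of 6 cases in each sample.

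All 9 measured sympathoadrenal marker genes and all 9 neuronal marker genes had a probe set above the median in both lines and in the pool. Against the pool, with high meaning within the top 7% of genes, 4 of the sympathoadrenal and 7 of the neuronal genes were high in IMR-32, and 7 and 6 in NGP. In IMR-32, 4 of the 9 sympathoadrenal genes were below the pool, namely TH (-1.40), GATA2 (-1.34), DBH (-0.33) and CHGB (-0.01). The 5 epithelial marker genes were all within the bottom 7% in both lines, with log2 ratios between -8.16 and -5.78 for IMR-32 and between -8.70 and -6.42 for NGP. The 4 measured glial marker genes had 0 of 12 probe sets above the median in any array.

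Each gene's ratio is the median over its probe sets. Following the study, a gene is called overexpressed where its ratio is within the top 7% of all genes and underexpressed within the bottom 7%, so that 7.0% of the 19775 genes are called at each end of a comparison. Over the pool the cut-offs were 1.68 and -2.83 in IMR-32 and 1.84 and -2.88 in NGP. In IMR-32, 3 of the 34 receptor genes were overexpressed (8.82%) and 1 was underexpressed, which is near the share of all genes at the upper end. In NGP, 11 of the 34 were overexpressed (32.4%) and 1 was underexpressed. Over the receptor genes the median ratio came to 0.23 for IMR-32 and 0.70 for NGP, against -0.23 and -0.22 over all genes. Since earlier results of these data were known when the genes were listed, these shares and medians only describe the list. The genes overexpressed in IMR-32 were GRIA2, GRIA3 and GABRA5, and all of them were overexpressed in NGP as well. Both lines are set against the same pool array, so a low pool signal raises both ratios. With 1 array per sample no p-value is given, and the number of arrays limits the precision. Where a gene had several probe sets (10523 genes), the SD of its ratios was 1.31 for IMR-32 and 1.41 for NGP, and 0.57 and 0.65 for probe sets above the median in both arrays compared.

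Of the 11 receptor genes overexpressed in NGP, GABRB2 alone had a probe set above the median of the pool array (207352_s_at). That probe set gave a ratio of 0.02 in NGP. The GABRB2 ratio was that of 242344_at, with a pool signal of 67.0, so the pool signals behind all 11 ratios were dim. GRM3 and GABRA4 were dim in NGP as well. In IMR-32, GRIA2 and GABRA5 were bright and GRIA3 was not, and all of them were dim in the pool.

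**Figure D2:**
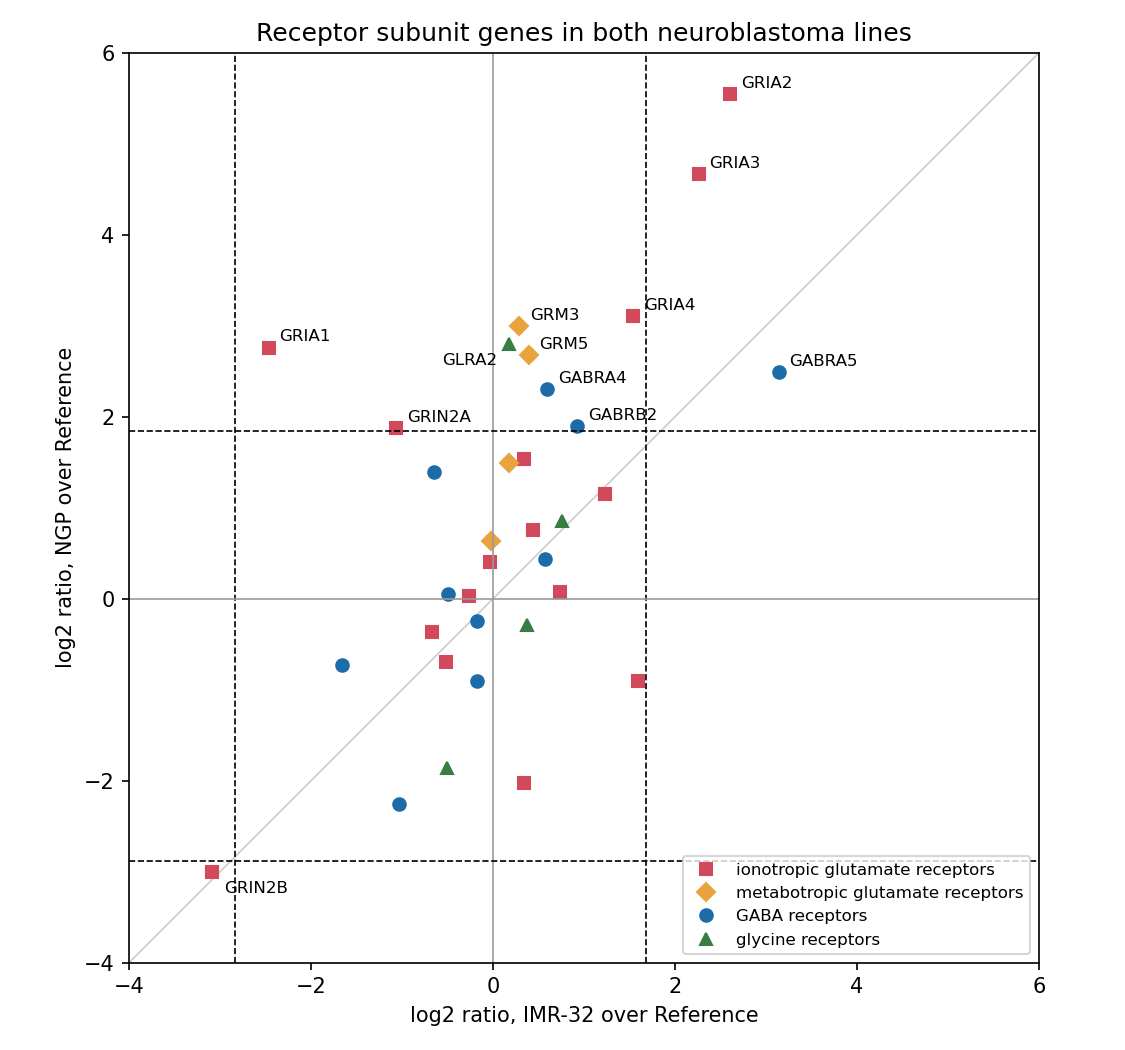
Log2 ratio over the reference pool of each of the 34 receptor genes in IMR-32 (x-axis) and NGP (y-axis), with 1 point per gene. Dashed lines mark the 7% cut-offs (1.68 and -2.83 in IMR-32, 1.84 and -2.88 in NGP), the diagonal marks equal ratios, and genes beyond a cut-off are named. GRIA1 to GRIA4 all lie above the upper NGP line, GABRA5 lies beyond the upper line of both, and GRIN2B lies below both lower lines.

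The AMPA receptor genes stood out in NGP. All 4, which encode the subunits that carry most fast excitatory transmission in the brain, were overexpressed there, with ratios from 2.76 to 5.55, and each had a probe set above the median of the NGP array. Of their 13 probe sets, 0 were above the median of the pool array. GRIA2, the subunit that makes the channel poorly permeable to calcium, was the 7th highest of the 19775 genes in NGP over the pool, at 5.55 (46.9-fold). Its probe set 205358_at had signals of 223 in IMR-32, 4222 in NGP and 90.0 in the pool, and 236538_at had 99.2, 1735 and 6.69. These probe sets were 42.7 and 17.6 times the array median in NGP. The third, 241172_at, was dim in all arrays (78.1, 56.2 and 12.8), and there NGP was below IMR-32.

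GRIA1 differed widely between the lines. Its probe set 209793_at had signals of 15.7 in IMR-32, 605 in NGP and 33.8 in the pool, and 211520_s_at had 3.14, 115 and 44.8. Both probe sets were thus highest in NGP and lowest in IMR-32, where they were far below the array median. The ratio over the pool was 2.76 in NGP (6.77-fold) and -2.47 in IMR-32, the latter inside the lower cut-off, so that IMR-32 was not called underexpressed. The ratio of NGP over IMR-32 was 5.23 (37.5-fold), the highest of the receptor genes, but with 32 added to the signals it was 2.90, below that of GRIA2 (3.75).

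GRIA3 and GRIA4 were dimmer but alike in direction. The 5 GRIA3 probe sets ranged from 8.86 to 65.9 in IMR-32, from 55.4 to 237 in NGP and from 1.64 to 9.42 in the pool, and in each of the 5 NGP was highest and the pool lowest. The ratio was 4.66 in NGP and 2.26 in IMR-32, and the size of both rests on pool signals far below the array median. The 3 GRIA4 probe sets lay at 47.3, 44.7 and 20.9 in IMR-32, at 120, 84.6 and 141 in NGP and at 13.9, 15.3 and 11.3 in the pool. The GRIA4 ratio was 3.11 in NGP, and it was 1.54 in IMR-32, below the cut-off.

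Promoter windows are shown for 3 of these AMPA receptor genes, and for GRIN2B, which was underexpressed in both lines, because they are among the genes with the largest ratios at either end. GRIA3 has no entry in the table used. Each window of 300 bases runs from 250 bases before a RefSeq start site to 50 bases after it (GRCh38.p14) on the strand of the gene. Capitals mark matches, on either strand, to the left part (CAGCACC) and the right part (GGACAG) of the RE1 element, to the cAMP response element TGACGTCA and to the E-box CACGTG, which is bound by MYC proteins. RE1 is bound by REST, a repressor of neuronal genes in other cells. Where a gene has several starts, the window with most matches is shown, and otherwise the first.
GRIA1, chr5:153490420-153490719, plus strand: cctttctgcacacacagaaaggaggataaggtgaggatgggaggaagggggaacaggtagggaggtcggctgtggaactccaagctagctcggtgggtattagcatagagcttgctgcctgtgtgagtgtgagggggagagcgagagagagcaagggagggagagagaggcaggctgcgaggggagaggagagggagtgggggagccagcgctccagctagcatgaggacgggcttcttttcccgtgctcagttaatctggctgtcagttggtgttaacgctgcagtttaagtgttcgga
GRIA2, chr4:157220369-157220668, plus strand: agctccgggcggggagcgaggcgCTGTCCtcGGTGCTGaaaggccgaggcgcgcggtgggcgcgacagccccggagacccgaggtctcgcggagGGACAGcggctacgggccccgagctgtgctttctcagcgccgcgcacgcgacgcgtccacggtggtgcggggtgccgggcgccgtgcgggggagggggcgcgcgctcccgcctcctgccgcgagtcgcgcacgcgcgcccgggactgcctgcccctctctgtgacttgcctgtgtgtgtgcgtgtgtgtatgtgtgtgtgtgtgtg
GRIA4, chr11:105610456-105610755, plus strand: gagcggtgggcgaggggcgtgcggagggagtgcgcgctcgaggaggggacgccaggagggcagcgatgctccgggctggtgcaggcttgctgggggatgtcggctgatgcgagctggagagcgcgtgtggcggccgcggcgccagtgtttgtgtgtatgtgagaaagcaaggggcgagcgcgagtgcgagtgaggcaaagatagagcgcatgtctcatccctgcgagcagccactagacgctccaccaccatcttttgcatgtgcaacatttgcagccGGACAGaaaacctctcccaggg
GRIN2B, chr12:13982085-13982384, minus strand: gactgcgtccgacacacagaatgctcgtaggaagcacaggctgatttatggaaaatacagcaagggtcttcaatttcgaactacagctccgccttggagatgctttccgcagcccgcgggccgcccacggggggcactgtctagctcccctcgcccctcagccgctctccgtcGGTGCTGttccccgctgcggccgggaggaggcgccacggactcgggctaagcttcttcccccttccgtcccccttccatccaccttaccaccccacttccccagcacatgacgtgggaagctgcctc

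The GRIA2 window holds both RE1 parts on the reverse strand, 2 bases apart, and a second right part further on. That spacing on 1 strand was found in 18 of 35116 promoter windows (0.0513%), and among 44 windows of 27 listed receptor genes it was found only in this one. The left part was found in 7.75% of all windows and in those of GRIA2 and GRIN2B. The right part was found in 20.5% of all windows and in those of 6 receptor genes. The cAMP response element was found in GABBR1 only (1.85% of all windows) and the E-box in GRM5 only (7.26%). The GRIA1 window shown held none of the 4 motifs. No 2 matches overlapped. A match is a run of letters only, and no binding was measured here.

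Of the kainate receptor genes, GRIK2, GRIK3 and GRIK5 had bright probe sets in all samples. Of 15 probe sets, 6 were above the median in IMR-32, 5 in NGP and 4 in the pool, and 0 of the 5 genes were called at either end over the pool. GRIK2, a subunit able to form channels alone, had its brightest probe set, 213845_at, at 437 in IMR-32, 629 in NGP and 133.4 in the pool, and 1560265_at was at 269, 275 and 71.3. The other 4 probe sets were lower in NGP than in IMR-32, at 2.49 to 29.1 against 28.8 to 150. The gene's median ratio of NGP over IMR-32 was therefore -2.39, within the bottom 7%, while its brightest probe sets differed by 0.53 and 0.03. The probe sets of GRIK2 thus give no single order of the lines.

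GRIK3 had 1 bright probe set, 230593_at, at 375 in IMR-32, 339 in NGP and 226 in the pool, and 1 dim one. GRIK5, a subunit that works only together with others of its family, had probe set 217509_x_at at 306, 417 and 314 and 214966_at at 147, 274 and 119. In GRIK5 the signal was highest in NGP for both of these probe sets. The gene ratios of GRIK3 and GRIK5 were 0.44 and -0.04 in IMR-32 and 0.76 and 0.41 in NGP. GRIK1 and GRIK4 had no probe set above the median in any array, with GRIK4 at 72.3, 45.7 and 43.5 and a GRIK1 ratio of -2.03 in NGP. The GRIK1 probe sets disagreed in direction there, from -4.37 to 2.85, all from dim signals.

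GRID1, of the delta family, which shares the structure of glutamate receptors but is not opened by glutamate, was bright in both lines. Its probe set 1555268_a_at had signals of 683 in IMR-32, 642 in NGP and 290 in the pool, and 1555267_at had 184, 172 and 107. Both lines lay above the pool and close to each other. The ratios were 1.23 in IMR-32 (2.35-fold) and 1.15 in NGP (2.21-fold), with all 3 probe sets in the same direction, but below the cut-offs. NGP over IMR-32 was -0.09.

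NMDA receptor genes were mostly dim. GRIN1, the subunit that every NMDA receptor needs, had 0 of 5 probe sets above the median in IMR-32 and in the pool, and 1 in NGP (210782_x_at, at 40.2 in IMR-32, 147 in NGP and 48.2 in the pool). Its ratio was -0.26 in IMR-32 and 0.03 in NGP. GRIN2A, a glutamate-binding subunit of the adult brain, had probe set 206534_at at 7.18 in IMR-32, 202 in NGP and 15.01 in the pool. The other GRIN2A probe sets were dim, and 242286_at went the other way (23.6, 12.7 and 94.4). The gene passed the NGP cut-off narrowly (1.88), and NGP over IMR-32 was 2.72.

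GRIN2B, the corresponding subunit of the developing brain, was underexpressed in both lines, at -3.09 in IMR-32 and -3.00 in NGP. All of its signals were below the array median. Probe set 239095_at was at 7.43, 6.69 and 63.4, and 210411_s_at at 6.87, 8.61 and 69.1, while 210412_at was at 76.3, 98.02 and 73.7. The call thus sets dim signals against dim signals, and the brightest of its probe sets gave 0.05 in IMR-32 and 0.41 in NGP.

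GRIN2C had 2 of 3 probe sets above the median in all samples. All 3 were below the pool in both lines, with ratios inside the cut-offs (-0.67 in IMR-32 and -0.37 in NGP). GRIN2D had probe set 229883_at at 188 in IMR-32, 14.6 in NGP and 222 in the pool, and 207036_x_at at 5.81, 58.4 and 10.1. Its 2 probe sets went opposite ways in NGP, and its median ratio there (-0.70) describes neither. GRIN3A, which lowers the calcium permeability of the channel, had probe set 233220_at at 94.7 in IMR-32, 411 in NGP and 71.3 in the pool. NGP was the highest in both GRIN3A probe sets, and the ratio of 1.54 was below the cut-off.

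Of the 4 metabotropic glutamate receptor genes listed, 2 were overexpressed in NGP and 0 in IMR-32. All 4 had ratios above 0 in NGP, with a median of 2.08 against 0.23 in IMR-32. GRM5, which acts through phospholipase C, had probe set 207235_s_at at 6.27 in IMR-32, 116 in NGP and 13.2 in the pool, but 1565389_s_at at 106, 26.6 and 15.3. Its ratio was 2.68 in NGP and 0.39 in IMR-32, and the probe sets disagree on which line was higher. GRM3, an inhibitory receptor coupled to Gi, had 1 probe set, at 9.17, 59.9 and 7.502, with a ratio of 3.00 in NGP. It was below the median in all arrays, so the ratio sets dim signals against each other.

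GRM8, also coupled to Gi, had 2 of its 3 probe sets highest in NGP (216992_s_at at 61.3, 154 and 54.5, and 216255_s_at at 56.6, 109 and 38.7) and the third highest in the pool (132). Its ratio was 1.49 in NGP and 0.17 in IMR-32. GRM7 had probe set 217008_s_at at 115 in IMR-32, 94.9 in NGP and 50.2 in the pool. The GRM7 ratios were 0.63 in NGP and -0.02 in IMR-32, below the cut-offs. In IMR-32 this probe set gave 1.19 and the dim 207548_at gave -1.23, so the median there describes neither.

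GABRA5 was the GABA receptor gene that stood apart from the pool in both lines. It encodes an alpha subunit of GABA-A receptors that lie largely outside synapses. Probe set 206456_at had signals of 801 in IMR-32, 509 in NGP and 90.7 in the pool, 215531_s_at had 261, 148 and 76.4, and 217280_x_at had 190, 216 and 12.9. Every probe set was above the array median in both lines and below it in the pool, as were 4.5% of all probe sets with 1 gene. In each of them both lines had a higher signal than the pool, with 1 array per sample. The ratio was 3.14 in IMR-32 (8.83-fold), the highest of the receptor genes there, and 2.49 in NGP (5.61-fold). NGP over IMR-32 was -0.65, with probe sets from -0.81 to 0.18. For NGP over IMR-32 the SD within genes was 0.52 among probe sets bright in both arrays and 1.28 among all, and the GABRA5 ratio lay between these in size. That SD is a spread of probe sets on the same arrays and not of arrays or cultures. The difference between the lines was thus not tested.

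GABRB2, a beta subunit, was also bright in the lines. Probe set 1557122_s_at was at 139 in IMR-32, 356 in NGP and 3.87 in the pool, and 242344_at at 127, 250 and 67.0. The third, 207352_s_at, was at 30.1, 138 and 137. NGP was the highest of the 3 samples in each probe set, by a margin that ranged from 0.02 to 6.52 over the pool. The ratio of 1.90 in NGP was just past the cut-off of 1.84, and that of IMR-32 (0.93) was not.

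The other GABA-A subunit genes were dim. GABRA3 had 1 probe set, at 24.1 in IMR-32, 99.7 in NGP and 37.9 in the pool. It passed the array median in NGP by little, and NGP over IMR-32 was 2.05, within the top 7% of that comparison (cut-off 1.95). GABRA2, GABRA4, GABRB1 and GABRG1 are neighbours in 1 cluster on chromosome 4, with COX7B2 among them. Of their 14 probe sets, 0 were above the median in IMR-32 or NGP and 1, of GABRA2, was above it in the pool (121). GABRA4 was called overexpressed in NGP (2.31) from signals of 7.02, 71.6 and 4.496 in 208463_at and of 46.1, 48.3 and 31.4 in 233437_at, all below the median. GABRD, a subunit of extrasynaptic receptors, had ratios of -1.03 in IMR-32 and -2.25 in NGP from signals of at most 69.5.

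Neither GABA-B receptor gene was called in any comparison. GABBR1, which binds GABA, had probe set 203146_s_at at 424 in IMR-32, 294 in NGP and 322 in the pool, and 238569_at at 109, 142 and 183. Its ratios were -0.18 in IMR-32 and -0.25 in NGP. GABBR2, the partner that couples to the G protein, had 4 probe sets, with signals from 10.3 to 152 in NGP, which disagreed in direction in NGP (from -2.28 to 1.61 over the pool) and in IMR-32 (from -1.05 to 0.85). Its ratios were -0.17 and -0.90.

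Of the glycine receptor genes, GLRB and GLRA2 were above the median in some sample. GLRB had probe set 205279_s_at at 281 in IMR-32, 104 in NGP and 217 in the pool, and 205280_at at 292, 139 and 101. IMR-32 was above NGP in both, and the gene's NGP over IMR-32 ratio of -1.07 was inside the lower cut-off of -1.84. GLRB is the next protein-coding gene to GRIA2 on chromosome 4. The lines differed in opposite directions for these neighbours, with NGP over IMR-32 at 4.13 for GRIA2. GLRA2, the alpha subunit typical of the embryonic nervous system, had 1 probe set, at 28.7 in IMR-32, 178 in NGP and 25.5 in the pool. It was overexpressed in NGP (2.80, 6.98-fold) and near the pool in IMR-32 (0.17). GLRA1 and GLRA3 had no probe set above the median in any array, with GLRA1 at 77.1, 82.6 and 45.7.

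**Figure D3:**
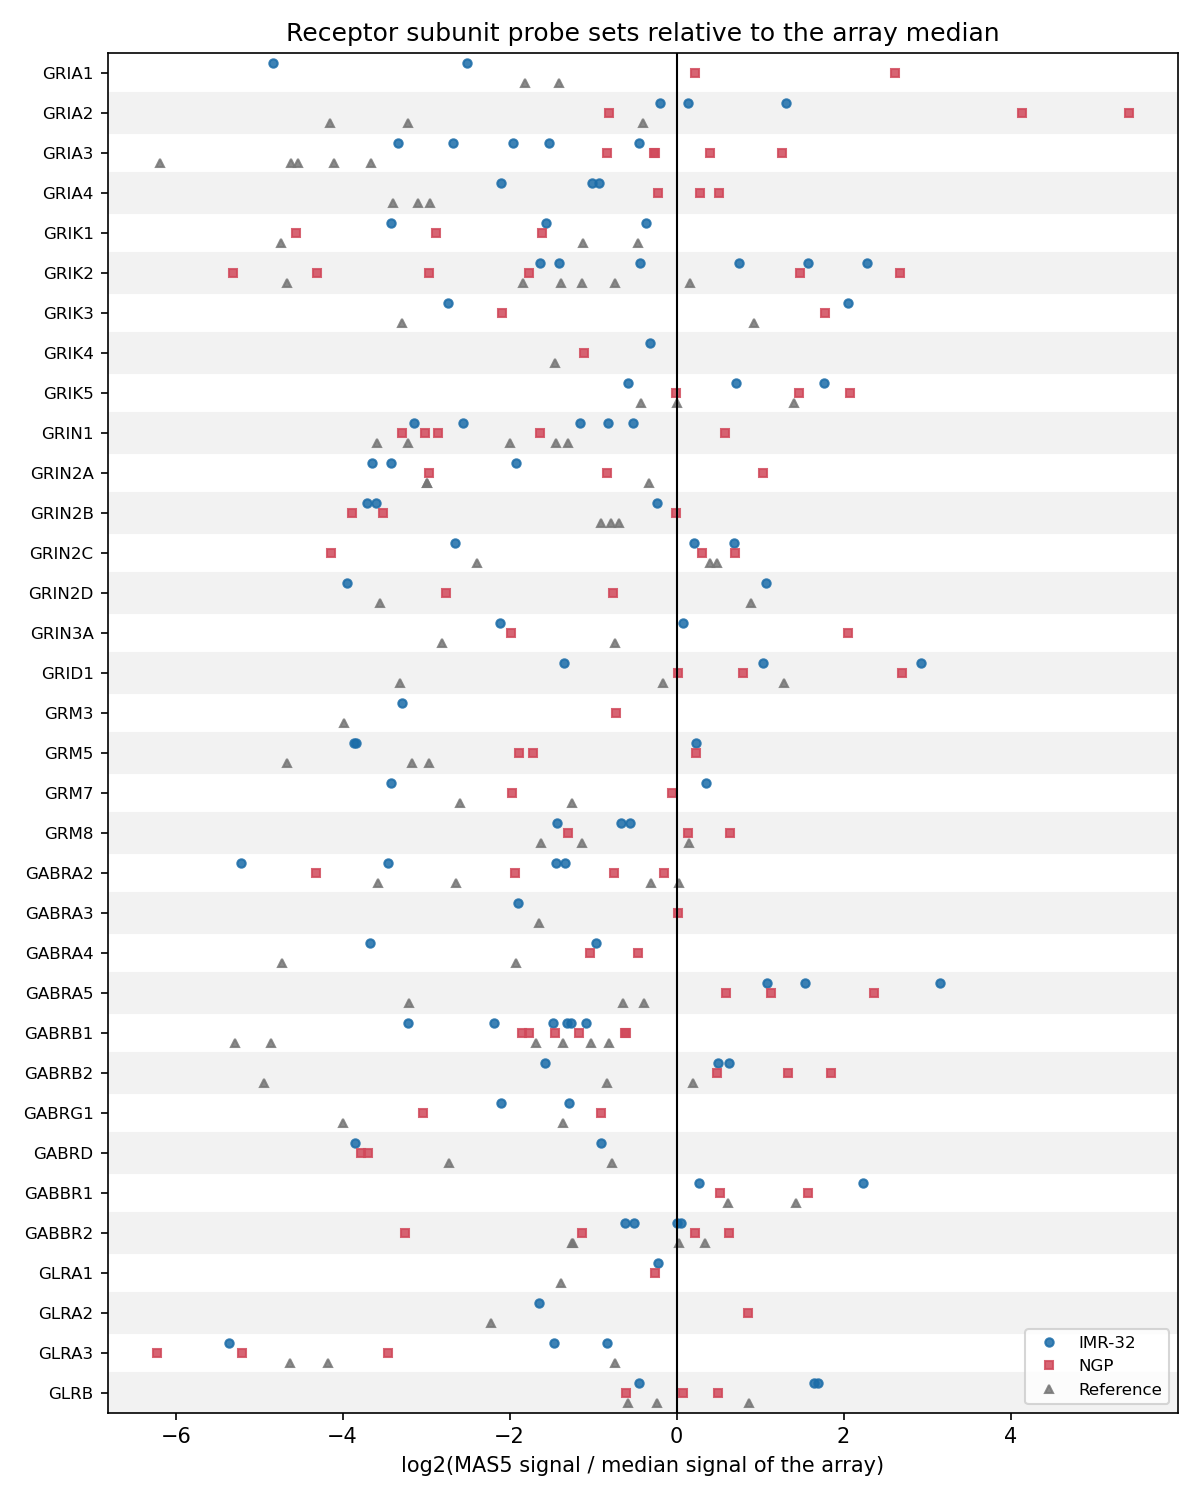
Signal of each of the 95 receptor probe sets relative to the median of its array (x-axis, log2; 0 is the median) for the 34 genes (y-axis) in IMR-32 (circles), NGP (squares) and the reference pool (triangles). Each point is 1 probe set on 1 array. The highest points are those of GRIA2 in NGP, at 42.7 and 17.6 times the median, and for 10 genes no point lies above the line.

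In the comparison of the lines with each other, NGP was above the upper cut-off for 8 of the 34 receptor genes (23.5%) and lower by more than the lower cut-off for 2, against 7.0% of all genes for either end. The 8 genes were GRIA1 (5.23), GRIA2 (4.13), GRIN2A (2.72), GRM3 (2.71), GLRA2 (2.63), GRM5 (2.28), GABRA3 (2.05) and GRIA3 (1.98). In 5 of them every probe set was higher in NGP, the exceptions being GRIA2, GRIN2A and GRM5, while GRM3, GLRA2 and GABRA3 rest on 1 probe set each. The genes lower in NGP were GRIK2 (-2.39) and GLRA3 (-2.48), the latter from dim signals only. The median over the receptor genes was 0.49, against 0.02 over all genes. Of the 34 genes, 20 were higher in NGP and 14 in IMR-32, while 50.8% of all genes were higher in NGP.

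Other genes of the same transmitter systems were also examined. Of 58 measured genes for further receptors, transmitter synthesis and loading, transporters, auxiliary subunits and scaffolds, 5 were overexpressed in IMR-32 (8.62%) and 3 in NGP (5.17%), and 2 (3.45%) and 1 (1.72%) were underexpressed. Their medians of -0.20 and -0.24 were near those of all genes. Among those with bright signals was GRM2, a further inhibitory glutamate receptor, whose probe sets were at 178 and 312 in IMR-32, 122 and 137 in NGP and at most 19.7 in the pool, with ratios of 3.60 and 2.74. LHFPL4, which holds GABA-A receptors at synapses, was overexpressed in IMR-32 (2.17, with signals of 794, 531 and 177) and below the cut-off in NGP (1.59). GABRR2, a subunit of GABA receptors known from the retina, was overexpressed in IMR-32 (2.86) with a signal of 138 there, against 25.9 in NGP and 19.0 in the pool. SHANK1, a scaffold of excitatory synapses, was overexpressed in both lines (2.45 and 3.23), with a signal above the median in NGP only (121).

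By group, 2 of 11 receptor genes outside the list were overexpressed in each line (18.2%), and 1 was underexpressed in IMR-32 and 0 in NGP. Their median ratios were -0.48 in IMR-32 and -0.02 in NGP. Of 10 transporter genes, 0 were overexpressed in either line. SLC1A3, a glutamate transporter best known from glia, was underexpressed in NGP (-4.70), with signals of at most 60.9 there against up to 1430 in the pool and up to 1152 in IMR-32. Of 8 genes for synthesis, breakdown and vesicular loading, 1 was overexpressed in IMR-32 and 0 in NGP. Of 18 scaffold genes 1 was overexpressed in each line, and of 11 auxiliary subunit genes 1 in IMR-32 and 0 in NGP.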

How the data were processed

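Polyadenylated RNA of IMR-32, NGP and the reference pool was measured on 1 Affymetrix U133 Plus 2.0 array per sample. The authors deposited MAS5 signal intensities, computed with Bioconductor's affy package (version: not given in the sources used here). Each array holds 54675 probe sets and had been scaled to the same trimmed mean. Arrays report no read depth, and their number (1 per sample) limits the precision. Probe sets were named through the platform annotation, with symbols updated by gene ID (41037 matched). Of all probe sets, 41091 name 1 gene, 1801 several and 11721 none, and 62 are controls. Only those naming 1 gene were used.

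The log2 ratio of 2 samples was taken per probe set without a pseudocount, and a gene's value is the median over its probe sets. Genes within the top or bottom 7% of the 19775 genes were called, after the study's methods. No test was run, as no sample has replicates. Receptor genes with a probe set above the array median in some sample were described by their values in all samples, and the rest by counts and ranges or by name where called. Genes of other lists were named only where called and bright. The receptor genes, the other lists and the marker lists were chosen with earlier results of these data known. Some listed genes were not analysed here. Promoter sequences are those of RefSeq (GRCh38.p14), with windows for 27 of the 35 genes. Python 3.11.15, numpy 2.4.6, pandas 2.3.3 and matplotlib 3.10.9 were used, and the scripts were tested on simulated data. The 12 alternatives tried were other normalizations, pseudocounts, filters, summaries and cut-offs. Among the summaries, the brightest probe set of a gene was that with the highest mean log2 signal over all arrays.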

Additional observations from a re-analysis of the deposited data

Results flagged for a closer look

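GRIA1 lay on opposite sides of the same pool array in the lines, with a log2 ratio of -2.47 in IMR-32 and 2.76 in NGP, and both of its probe sets showed these directions. The difference was not tested, since each line has 1 array, and both ratios share the pool array. The IMR-32 ratio sets dim signals (15.7 and 3.14) against dim pool signals (33.8 and 44.8), and it was inside the lower cut-off.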

How the results depend on the processing

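No paired analysis was possible because each sample has 1 array, and with 1 array there was no replicate to leave out. Of 90 values of the counts and medians under the 12 alternatives, 27 were counts that moved by over 1.5 times. The medians over the receptor genes stayed above 0. For IMR-32 over the pool they ranged from 0.0947 (32 added) to 0.73 (dim probe sets left out). With the same alternatives at the ends, they ranged from 0.40 to 1.61 for NGP over the pool and from 0.11 to 1.11 for NGP over IMR-32. Leaving out dim probe sets kept those bright in either array compared. Of the receptor probe sets, 15 were bright in NGP alone, 4 in IMR-32 alone and 2 in the pool alone. The filter itself can thus raise these medians, and the upper ends are no separate support. Of 26 calls of single receptor genes, 12 were kept under all alternatives that gave a value, among them GABRA5 in both lines and GRIA1 to GRIA4, GRM3 and GLRA2 in NGP over the pool.

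The number of receptor genes underexpressed in IMR-32 (1) was 0 with 32 added to the signals, with dim probe sets left out (17 genes), with the brightest probe set per gene, with the mean over probe sets, without _s_at and _x_at probe sets (32 genes) and at 5%, and 2 at 10%, where 5 in place of 3 were overexpressed. The number underexpressed in NGP (1) was 0 after quantile normalization, with 32 added, with the mean, with cut-offs over all probe sets and at 5%, and 2 with the brightest probe set. For NGP over IMR-32, the number at the lower end (2) was 0 with 32 added, 1 with dim probe sets left out (23 genes), 4 with the brightest probe set and 1 with the mean, and the number at the upper end (8) was 5 with the brightest probe set and 5 at 5%. Probe sets above 2 times the array median numbered 14 in IMR-32, 17 in NGP and 3 in the pool. Without _s_at and _x_at probe sets, 17, 22 and 10 of 64 were above the median, and against the median of probe sets naming 1 gene the pool had 8. The shares of all probe sets under these settings are not given here, so these counts describe the receptor probe sets alone.

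With the brightest probe set, ratios turned in direction for GRIN2B (0.0516 for IMR-32 and 0.41 for NGP, each over the pool), for GRIN2A (-2.90 in NGP over the pool and -0.90 in NGP over IMR-32), for GRM5 (-1.99 in NGP over IMR-32) and for GRIK2 (0.53 in NGP over IMR-32, and 0.0335 with dim probe sets left out). For GRIN2A the probe set brightest by mean signal was 242286_at, which was dim in every array. The GRIN2A probe set above the median in NGP, 206534_at, gave 3.75 over the pool and 4.81 over IMR-32. For GRM5 it was 1565389_s_at, while 207235_s_at, above the median in NGP, gave 4.21 over IMR-32. These turns arise because probe sets of these genes disagree. Other causes were not tested.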
